A study of Mus musculus with 6 samples.

Results

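The genes described here handle iron. They were chosen by name as a fixed list of 9: Lcn2, Tfrc, Fth1, Ftl1, Slc40a1, Slc11a2, Cp, Trf and Hamp. Of these 9, the gene name column of the deposited table, which held 41386 genes, gave 8. No row was named Ftl1, and the row that lay at its place is described separately. The libraries were bulk RNA-seq of hippocampus from wild type mice, C57BL/6 in the labels and C57BL/6J in the study's methods, aged 56 days. In 3 libraries the middle cerebral artery of the mice had been blocked (focal MCAO) for 1.5 h, with reperfusion over the next 24 h (I/R), and in 3 libraries a sham operation. Per the study's methods, the mice were male, the filament was inserted on the left side, sham mice had the surgery without the filament, and each library held pooled hippocampi. Errors and p-values therefore reflect pools rather than individual mice, and a pool mixes mice with larger and smaller injury.

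Iron is needed for heme and for iron-sulfur clusters, and free iron drives the formation of radicals, so cells keep most of it bound. Transferrin (Trf) carries iron to the transferrin receptor (Tfrc), Slc11a2 (DMT1) moves iron out of the endosome, ferritin built of heavy (Fth1) and light (Ftl1) chains stores it, and ferroportin (Slc40a1) exports it with the help of ceruloplasmin (Cp), a ferroxidase. Hepcidin (Hamp) is a peptide hormone that removes ferroportin from the cell surface, and lipocalin 2 (Lcn2) binds bacterial and host siderophores, small molecules that hold iron. In the brain, Trf is known mainly from oligodendrocytes and choroid plexus, Cp from astrocytes, and Lcn2 from reactive astrocytes, endothelium and neutrophils.

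Several of these genes carry an iron-responsive element (IRE), a hairpin of the mRNA that iron regulatory proteins bind when iron is low. In a 5′ untranslated region (5′UTR) it holds back translation, and in the 3′ untranslated region (3′UTR) of Tfrc it protects the mRNA from decay. The elements below are shown because they are the shared control sequence of the storage, export and uptake genes. They were read from GENCODE M21 transcripts on the mouse genome build GRCm38, and capitals mark the loop of 6 bases at the tip of the hairpin. The search asked for the loop CAGTGN, closed by 5 base pairs, with a C standing 6 bases before the loop.
Fth1, 5′UTR, chr19:9982732-9982760, plus strand: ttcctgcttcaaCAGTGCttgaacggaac
Ftl1, 5′UTR, chr7:45459779-45459807, minus strand: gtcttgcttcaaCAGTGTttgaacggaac
Slc40a1, 5′UTR, chr1:45925465-45925493, minus strand: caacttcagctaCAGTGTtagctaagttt
Tfrc, 3′UTR, chr16:32631219-32631247, plus strand: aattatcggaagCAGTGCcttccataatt
Tfrc, 3′UTR, chr16:32631598-32631626, plus strand: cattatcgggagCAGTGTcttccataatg
Tfrc, 3′UTR, chr16:32631663-32631691, plus strand: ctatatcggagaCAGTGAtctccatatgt
Tfrc, 3′UTR, chr16:32631710-32631738, plus strand: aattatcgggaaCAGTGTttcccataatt
The search matched 4 of the 9 genes. Over all 21877 protein-coding genes it matched the 5′UTR of 31, which was 0.142%, and the 3′UTR of 128, which was 0.585%. A match is a description of the letters, and no match says only that these letters were not found.

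The libraries held 37493042 to 44788547 counted reads. Levels are given as CPM, counts scaled by TMM and by library size, which compare one gene between libraries, and as the deposited FPKM, which also divide by gene length and allow levels of different genes to be compared. The TMM factors were 1.06 to 1.15 in the I/R libraries and 0.908 to 0.920 in sham, and they apply to CPM and not to FPKM. The libraries differed in choroid plexus RNA: Ttr, the main transcript of that tissue, had 68521, 138610 and 810 counts in I/R replicates 1 to 3 and 385, 101015 and 140679 in sham replicates 1 to 3. Neuronal markers were present in every library, as the hippocampal label asks, but their summed level was 1886 to 4658 CPM after I/R against 10618 to 10803 CPM in sham. In bulk tissue, fewer cells of a type and less RNA per cell cannot be told apart.

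Of the 8 genes found, 7 passed the filter on low counts and were tested. Lcn2, Cp and Trf rose in I/R versus sham, Slc40a1 fell, and Tfrc, Fth1 and Slc11a2 did not pass the test. A gene was a differentially expressed gene (DEG) where the fold change, up or down, exceeded 1.2 and the adjusted p stayed under 0.05. The 3 higher genes stood beside 21.8% of all 18569 tested genes, and the 1 lower gene beside 19.9%. In both directions together 4 of 7 were DEGs, beside 41.8% of all tested genes. The median log2 fold change was 0.26 over these 7 genes and 0.026 over all tested genes. Given how many genes changed in this tissue, the count alone does not set the iron genes apart, and the size and direction of each gene are given below.

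**Figure D1:**
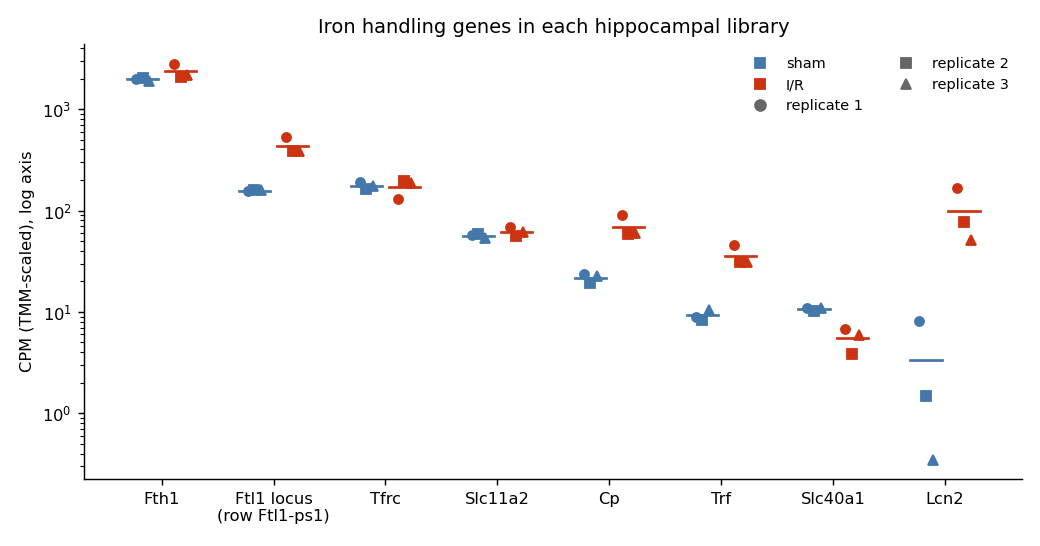
Level of each tested iron handling gene in the 6 libraries, as TMM-scaled CPM on a log axis; points are libraries, with one symbol per replicate number, and bars are group means. Lcn2, Cp, Trf and the row at the Ftl1 locus lay higher in every I/R library than in any sham library, Slc40a1 lay lower, and Tfrc and Slc11a2 overlapped. Fth1 also lay higher in every I/R library, in I/R replicates 2 and 3 only just.

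Lcn2 showed the largest difference among these genes and also the largest spread. It had 7644, 3099 and 2053 counts in the I/R libraries against 318, 60 and 12 in the sham libraries. Scaled, these were 168, 77.5 and 51.3 CPM after I/R against 8.14, 1.48 and 0.349 CPM in sham. The groups did not overlap, although sham replicate 1 stood well above the other sham libraries. The means were 98.9 ± 61.2 CPM after I/R against 3.32 ± 4.21 CPM in sham (SD, n = 3 each), a 29.8-fold difference. The log2 fold change was 4.88 with a standard error (SE) of 0.98 and an adjusted p of 0.00772 by edgeR's quasi-likelihood test. Without I/R replicate 1 it was 4.25 with an adjusted p of 0.0706, so the call rested on that library, without sham replicate 1 it was 6.70, and among the 4 libraries with high Ttr it was 7.01. Lcn2 lies at 29654709 to 29658328 on the minus strand of chromosome 2 in the deposited BALB/cJ coordinates, and no other row overlaps it.

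Neutrophil markers moved with Lcn2. The 10 markers, which do not include Lcn2, summed to 32.8, 8.68 and 6.78 CPM in the I/R libraries against 1.74, 0.984 and 0.436 CPM in the sham libraries, the same order of the 6 libraries as for Lcn2. The most abundant were S100a8, with 671, 143 and 118 counts in I/R against 20, 7 and 5 in sham, and S100a9, with 571, 107 and 104 against 29, 20 and 1. Of the 10 markers, 5 were tested and 4 rose. The defining markers Ngp, Ly6g, Elane and Cxcr2 were at 0 in all sham libraries, while in the I/R libraries Cxcr2 had 87, 10 and 9 counts, Elane 1 in each, and Ngp and Ly6g 5 and 1 in replicate 1 and 0 in the others. The part of neutrophil RNA in the Lcn2 difference was not tested. The monocyte and macrophage markers also summed higher, at 222, 121 and 116 CPM after I/R against 18.3, 22.5 and 20.1 CPM in sham. Their I/R replicates 1 to 3 stood in the same order as for Lcn2. The 8 endothelial markers summed to 790, 626 and 557 CPM after I/R against 448, 448 and 480 CPM in sham, with 5 higher and 2 lower among the 8 tested, and I/R replicates 1 to 3 stood in the same order as for Lcn2. Of the 8 astrocyte markers 2 rose and 5 fell. Gfap, which marks reactive astrocytes, was at 2415, 1715 and 1864 CPM after I/R against 375, 399 and 435 CPM in sham (log2 fold change 2.31, SE 0.17), with I/R replicate 1 the highest as for Lcn2. Slc1a2, the astrocytic glutamate transporter and the most abundant of these markers in sham, fell by 0.96 on the log2 scale, and the summed level of the 8 was 5022 to 5341 CPM in the I/R libraries and 5507 to 5815 CPM in the sham libraries. The part of these cell types in the Lcn2 difference was not tested either.

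**Figure D2:**
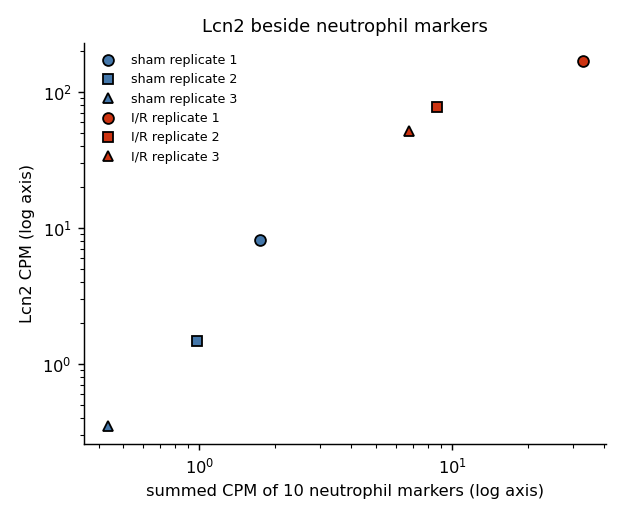
Lcn2 CPM against the summed CPM of 10 neutrophil markers in each of the 6 libraries, both on log axes; each point is a library, with colour for the group and symbol for the replicate. Both measures placed the libraries in the same order, from sham replicate 3 at the lowest, with 0.349 CPM of Lcn2, to I/R replicate 1 at the highest, with 168 CPM.

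The 24p3 receptor Slc22a17, which has been described as a cell surface receptor for lipocalin 2, went the other way. It had 12362, 19319 and 18401 counts after I/R against 31770, 39981 and 32402 in sham, and the groups did not overlap. The level was 405 ± 116 CPM after I/R against 913 ± 88.6 CPM in sham, and the log2 fold change was -1.17 (SE 0.22, adjusted p = 0.00465 by edgeR). Its lowest library was I/R replicate 1, which was also the highest for Lcn2 and the lowest for the summed neuronal markers. Lactotransferrin (Ltf), an iron-binding protein of neutrophil granules, had 4, 1 and 2 counts after I/R against 0, 0 and 5 in sham, too few to test.

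Ceruloplasmin and transferrin, both secreted proteins, rose with much less spread. Cp had 4125, 2332 and 2380 counts after I/R against 921, 784 and 771 in sham. Its level was 69.5 ± 18.3 CPM after I/R against 21.8 ± 2.22 CPM in sham, a 3.19-fold difference (log2 fold change 1.68, SE 0.18, adjusted p = 0.000707 by edgeR). Every I/R library stood above every sham library, with I/R replicate 1 the highest. In sham replicates 1 to 3, where Ttr had 385, 101015 and 140679 counts, Cp stood at 23.6, 19.3 and 22.4 CPM. Among the 4 libraries with high Ttr alone the log2 fold change of Cp was 1.83. The part of choroid plexus or astrocyte RNA in the Cp difference was not tested. The Cp row overlaps Hps3 on the other strand, which held 815 to 870 counts after I/R against 687 to 760 in sham. Whether the counting used strand is not stated, and in GENCODE M21 1.13% of Cp exon bases lie under Hps3.

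Trf had 2058, 1252 and 1235 counts after I/R against 351, 336 and 357 in sham. The level was 35.8 ± 8.15 CPM after I/R against 9.21 ± 1.07 CPM in sham, a 3.89-fold difference (log2 fold change 1.96, SE 0.18, adjusted p = 0.000385 by edgeR), and the groups did not overlap. The 10 oligodendrocyte markers did not rise with it: they summed to 6563 to 7696 CPM after I/R against 7673 to 9447 CPM in sham. Among the 4 libraries with high Ttr the log2 fold change of Trf was 2.03. The part of oligodendrocyte or choroid plexus RNA in the Trf difference was not tested. The Trf counts are uncertain, because the row lies almost wholly within a row on the same strand, Gm20425, which held 0 counts in all 6 libraries. In GENCODE M21, 63.5% of the exon bases of Trf belong to Gm20425 too. How reads on shared exons were treated is not stated, so the counts may cover only a part of the transcript, and the level of Trf should not be read against that of other genes. The same row was counted in every library, so the comparison between groups concerns the reads that were counted.

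Ferroportin (Slc40a1), the known iron exporter of vertebrate cells, was the only one of the 7 tested genes that fell. It had 306, 153 and 235 counts after I/R against 431, 413 and 376 in sham. These gave 6.72, 3.83 and 5.88 CPM after I/R against 11.04, 10.16 and 10.93 CPM in sham, with no overlap. The means were 5.48 ± 1.49 and 10.7 ± 0.478 CPM, 1.96-fold lower in I/R (log2 fold change -0.97, SE 0.21, adjusted p = 0.00869 by edgeR). Leaving out any 1 library kept the call, with log2 fold changes from -1.14 to -0.79. Among the 4 libraries with high Ttr the value was -1.01 with an adjusted p of 0.0511, and over all 20 alternatives the adjusted p ranged from 0.000106 to 0.0511. Ceruloplasmin and ferroportin, which act together in export, thus moved in opposite directions. The FPKM ratio of Cp to Slc40a1 was 10.1, 11.4 and 7.55 after I/R against 1.59, 1.42 and 1.53 in sham.

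The membrane ferroxidase hephaestin (Heph), which does the same reaction as ceruloplasmin, did not rise with it. Heph had 428, 447 and 305 counts after I/R against 492, 575 and 473 in sham, and its log2 fold change was -0.52 (SE 0.16, adjusted p = 0.0332 by edgeR). That call was lost under some alternatives: it was kept without I/R replicate 1 or 2, and lost without I/R replicate 3 (-0.42) or any sham replicate (-0.58, -0.49 and -0.52). Some reductases and carriers of the same list rose. Steap4, a metalloreductase, had 883, 405 and 299 counts after I/R against 29, 26 and 52 in sham (log2 fold change 3.69, SE 0.46, and 1.97 on the log2(FPKM + 1) scale, which understates low genes). Steap3, the reductase of the transferrin endosome, changed by 1.64 (SE 0.23), and the carriers Slc39a14 and Slc39a8, which take up iron that is not bound to transferrin, changed by 1.35 (SE 0.15) and 0.83 (SE 0.18). The adjusted p of these 4 genes was 0.00075 to 0.00825, and none of them overlapped between groups. None of the other reductases of the list was a DEG in the edgeR test. That test used all 6 libraries, the filter on low counts, TMM scaling and no covariate. The lysosomal channel Mcoln1, the second most abundant gene of the list in sham after Slc22a17, gave -0.28 (SE 0.11) and was not a DEG, but was one without I/R replicate 3 (-0.36).

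**Figure D3:**
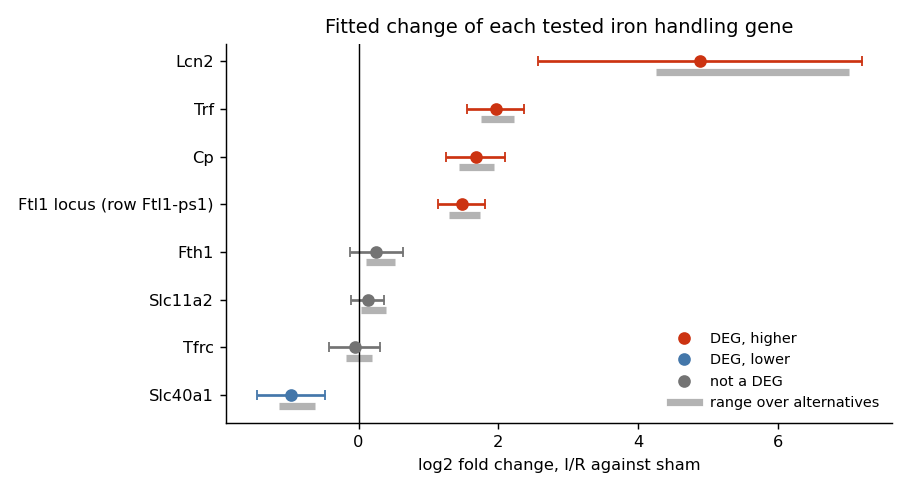
Fitted log2 fold change of each tested iron handling gene, I/R against sham; points are edgeR estimates with 95% confidence intervals, coloured by call, and grey bars give the range over the 20 alternative settings. Trf, Cp and the row at the Ftl1 locus lay within 1.47 to 1.96, Slc40a1 lay at -0.97, and the intervals of Fth1, Slc11a2 and Tfrc crossed 0.

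Of the uptake genes, neither Tfrc nor Slc11a2 passed the test. Tfrc had 5890, 7748 and 7417 counts after I/R against 7494, 6553 and 6028 in sham. In CPM, I/R replicate 1 was the lowest of all libraries at 129, while I/R replicates 2 and 3, at 194 and 185, lay within or just above the sham range of 161 to 192. The means were 170 ± 35.03 and 176 ± 15.4 CPM, and the log2 fold change of -0.05 had a 95% confidence interval from -0.42 to 0.31 (adjusted p = 0.805 by edgeR). Its sign was not stable: it was 0.19 when libraries were scaled by size only and 0.10 without I/R replicate 1. Tfr2, the second transferrin receptor, gave -0.17 (SE 0.21) and also changed sign when libraries were scaled by size only, to 0.078. Slc11a2 had 3150, 2221 and 2436 counts after I/R against 2248, 2384 and 1840 in sham, and its groups overlapped at 61.9 ± 6.88 and 56.6 ± 2.73 CPM. Its log2 fold change was 0.13, with an interval from -0.10 to 0.36 (adjusted p = 0.339 by edgeR). Scaled by library size only, it was 0.39 with an adjusted p of 0.0291, and over the 20 alternatives the adjusted p ranged from 0.0291 to 0.719. The Slc11a2 row overlaps Gm5475 on the other strand, which held 3 to 15 counts.

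Fth1 was by far the most abundant of these genes. It had 127542, 83485 and 87239 counts after I/R against 77990, 82039 and 65463 in sham, which was 0.222% to 0.322% of all counts after I/R against 0.175% to 0.184% in sham. In CPM it stood at 2802, 2088 and 2182 after I/R against 1998, 2019 and 1903 in sham. The I/R libraries all lay above the sham libraries, but 2 of them only just. The log2 fold change was 0.26 with an interval from -0.12 to 0.64 (adjusted p = 0.246 by edgeR), so Fth1 was not a DEG. With libraries scaled by size only it was 0.52 with an adjusted p of 0.0354, and over the 20 alternatives the adjusted p ranged from 0.0313 to 0.462. Counting Fth1, the I/R libraries lay wholly above the sham libraries in 4 of the 7 tested genes, beside 29.3% of all tested genes, and wholly below in 1, beside 28.1%.

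The light chain could only be followed through a row that the table names Ftl1-ps1. That row lies on chromosome 7 from 44833702 to 44835914, minus strand, between Gys1 and Bax, in the BALB/cJ coordinates. In GENCODE M21 on GRCm38, Ftl1 lies between the same neighbours, on chromosome 7 from 45457944 to 45459884, while Ftl1-ps1 lies on chromosome 13 between Zfp72 and Zfp825, and the pathway text of the row names Ftl1. It is therefore called the row at the Ftl1 locus, and it is not counted among the 8 genes found by name. It is uncertain for another reason, since 58.4% of all stretches of 50 bases of the Ftl1 transcripts also occur in other genes, namely Ftl1-ps1, Gm15590, Gm10252 and Ftl2-ps. For Fth1 that share was 1.59%, all of it shared with Gm6977. The table held 4 rows of ferritin genes in all. Besides Fth1 and the row at the Ftl1 locus these were Fthl17a, with 1, 4 and 0 counts after I/R against 4, 0 and 0 in sham, and mitochondrial ferritin (Ftmt), at 0 in all libraries.

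The row at the Ftl1 locus had 24418, 15453 and 15345 counts after I/R against 6022, 6456 and 5428 in sham. In CPM it was 536, 387 and 384 after I/R against 154, 159 and 158 in sham. The sham libraries lay closer together, relative to their mean, than for any of the 7 tested genes found by name, and every I/R library was well above them. The means were 436 ± 87.4 and 157 ± 2.41 CPM, a 2.78-fold difference (log2 fold change 1.47, SE 0.15, adjusted p = 0.000547 by edgeR), and the 20 alternatives all kept the call. The ratio of light to heavy chain FPKM was 0.203, 0.196 and 0.187 after I/R against 0.0819, 0.0835 and 0.0880 in sham. The means were 0.195 ± 0.00830 and 0.0845 ± 0.00314, and the exact two-sided permutation test gave p = 0.1, the smallest that 3 against 3 libraries allow. A ratio within a library does not depend on how libraries are scaled. The gap between the groups in this ratio exceeded the spread within either group, with the uncertainty of the light chain row as stated.

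**Figure D4:**
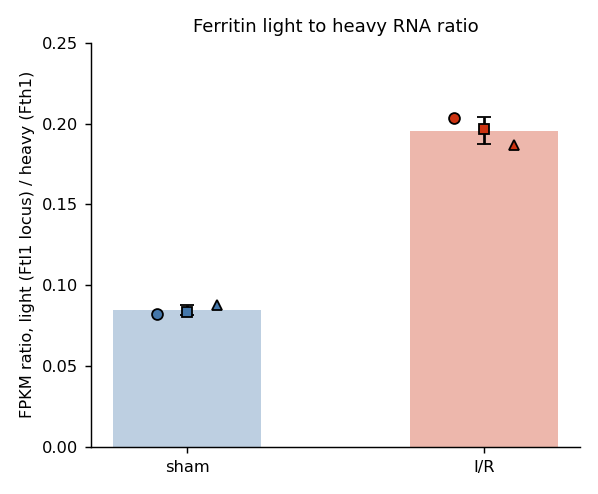
Ratio of FPKM of the row at the Ftl1 locus (light chain) to FPKM of Fth1 (heavy chain) per library; bars are means, error bars SD of 3 libraries, and points single libraries. The I/R libraries lay at 0.187 to 0.203 and the sham libraries at 0.0819 to 0.0880.

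The genes in which the search found an IRE did not share a direction, and genes it did not match are not covered here. With the element in the 5′UTR, Slc40a1 fell, Fth1 did not pass the test, and the row at the Ftl1 locus rose. With the element in the 3′UTR, Tfrc did not pass the test. Of the iron regulatory proteins themselves, Aco1 had a log2 fold change of 0.31 (SE 0.10, adjusted p = 0.0349 by edgeR), a call lost without any 1 of the 6 libraries (0.22 to 0.32), and Ireb2 had 0.05 (SE 0.09). Fbxl5, the iron-sensing subunit that targets Ireb2 for degradation, gave -0.02 (SE 0.13), and Ireb2 and Fbxl5 both changed sign under some alternatives. Translation, where a 5′ element acts, is not measured by mRNA counts. The ferritin chaperones Pcbp1 and Pcbp2, which deliver iron to ferritin, gave 0.09 (SE 0.09) and 0.29 (SE 0.10), and neither was a DEG. Ncoa4, the receptor for ferritin breakdown, was not analysed here.

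Hepcidin was close to undetected. Hamp had 10, 1 and 0 counts after I/R against 4, 0 and 0 in sham, and failed the filter on low counts. A count of 0 allows up to 3 counts, which is 0.0738 to 0.0872 CPM in the libraries at 0. Its close copy Hamp2 had 6, 4 and 1 counts after I/R against 3, 2 and 5 in sham, and 16.6% of the stretches of 50 bases of Hamp occur in Hamp2 as well. The Hamp row also lies within the span of Usf2 on the same strand, which had 1177 to 1734 counts per library. No difference of Hamp was detectable at this depth. The genes that control hepcidin in liver were better covered. Id1 and Smad7, both targets of bone morphogenetic protein signalling, rose by 1.70 (SE 0.26) and 0.78 (SE 0.11) on the log2 scale. Smad6 rose by 1.21 (SE 0.33), a call lost without I/R replicate 2 (1.13) or sham replicate 2 (1.32). Tmprss6, a protease that lowers hepcidin, had 7, 30 and 32 counts after I/R against 74, 106 and 102 in sham (log2 fold change -2.14, SE 0.53, adjusted p = 0.0140 by edgeR), a call lost without sham replicate 2 or 3 (adjusted p = 0.0514 and 0.0501, with a range from 0.000239 to 0.0514 over all alternatives). Bmp6, the ligand that iron induces in liver endothelium, gave -0.60 (SE 0.34) and Hfe, a partner of the transferrin receptors, 0.73 (SE 0.27), and neither was a DEG. The coreceptor hemojuvelin, named Hfe2 in the table, had 0 to 9 counts per library.

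Levels of different genes were set side by side on the FPKM scale, leaving out Trf, whose level is uncertain. In sham the order was Fth1 (2085 ± 59.3), the row at the Ftl1 locus (176 ± 1.84), Tfrc (81.8 ± 7.69), Slc11a2 (38.9 ± 1.75), Cp (9.83 ± 1.07), Slc40a1 (6.49 ± 0.336), Lcn2 (3.33 ± 4.23) and Hamp (0.0766 ± 0.133). Slc40a1 and Lcn2 overlapped in their libraries. In I/R Fth1 (2988 ± 639) and the row at the Ftl1 locus (587 ± 147) stayed at the top, and Lcn2 (120 ± 80.0) came next, overlapping with Tfrc (93.4 ± 15.6). Below them Slc11a2 (51.0 ± 7.96) and Cp (37.8 ± 11.9) overlapped, and Slc40a1 (3.98 ± 1.22) stood between these and Hamp (0.227 ± 0.339). The mean of Lcn2 was thus below that of Slc40a1 in sham, where their libraries overlapped, and above that of Tfrc after I/R, where they overlapped as well. I/R replicate 1 had the highest FPKM of all 6 libraries for Lcn2, Fth1, the row at the Ftl1 locus, Slc11a2, Cp and Trf, and it was also the library with the lowest summed level of neuronal markers, at 1886 CPM.

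The other iron genes were taken from 5 lists by role, with 76 genes in the table and 71 tested. Of these 71, 19 rose and 9 fell, which was 39.4% beside 41.8% of all tested genes, and their median log2 fold change was 0.016. The list of iron entry and movement had 5 higher and 2 lower of 15 tested, storage and chaperones 0 and 0 of 3, and sensing and hepcidin control 4 and 1 of 11. Heme handling had 7 higher and 4 lower of 22, and iron-sulfur cluster assembly 3 and 2 of 20. More of these 71 genes rose than fell, 19 against 9, while among all tested genes 21.8% rose and 19.9% fell. Every list with DEGs held both higher and lower genes, and the median of 0.016 stood beside 0.026 over all tested genes. The genes thus did not share 1 direction, and whether their lean towards higher levels exceeded that of all tested genes was not tested. In the entry list, Steap1 was low where Ttr was low, and its groups overlapped. It had 302, 349 and 74 counts after I/R against 2, 189 and 308 in sham. Its log2 fold change of 0.34 (SE 1.08) became 0.17 among the 4 libraries with high Ttr and 1.87 with choroid plexus markers as a covariate, and the last was the only one of 19 alternatives in which it passed the test.

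**Figure D5:**
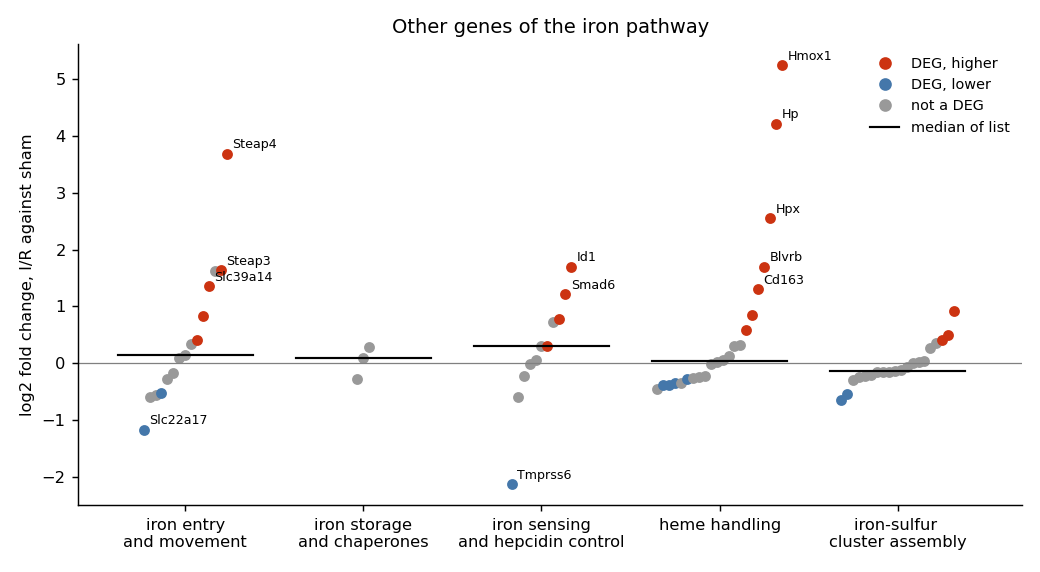
Log2 fold change of the 71 tested genes in 5 lists of iron genes, I/R against sham; each point is a gene, coloured by call, and black lines are list medians. Hmox1, Hp and Steap4 stood highest, Tmprss6 and Slc22a17 lowest, and the list medians lay between -0.14 and 0.30.

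Heme handling held the largest fold change of the 5 lists. Heme oxygenase 1 (Hmox1), which frees iron from heme, had 17085, 4763 and 5377 counts after I/R against 225, 213 and 189 in sham, with no overlap (log2 fold change 5.25, SE 0.48, adjusted p = 0.000408 by edgeR). Without I/R replicate 1, its highest library, the log2 fold change was 4.52. Blvrb, a biliverdin reductase, rose by 1.70 (SE 0.20) on the log2 scale. Genes that clear hemoglobin and heme outside cells also rose: haptoglobin (Hp) had 171, 35 and 36 counts after I/R against 3 to 4 in sham, hemopexin (Hpx) 43, 43 and 33 against 7, 4 and 7, and the scavenger receptor Cd163 524, 366 and 208 against 108, 141 and 148. The log2 fold change of Hp was 4.22 (SE 0.76), and 3.15 without I/R replicate 1. The Cd163 call was lost without sham replicate 2 (1.28). An unnamed row whose pathway text gives a beta globin had 119 ± 18.4 CPM after I/R against 82.3 ± 3.85 CPM in sham (log2 fold change 0.54, SE 0.12, and 0.51 and not called among the 4 libraries with high Ttr), while the few erythrocyte markers in the table summed to 2.13 to 3.69 and 1.97 to 3.05 CPM. The part of blood in these differences was not tested. The heme receptor Lrp1 and the heme carrier Slc48a1, the most abundant of the list, gave -0.24 (SE 0.11) and -0.28 (SE 0.09), and Slc48a1 was called with an adjusted p of 0.0403 by edgeR. Its call was kept only without I/R replicate 1 among the 6 fits that leave out a library (-0.33 to -0.26 over those that lost it), and Lrp1 became a DEG without I/R replicate 1 (-0.28).

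Iron-sulfur cluster assembly had 3 higher and 2 lower genes among 20 tested, beside 21.8% and 19.9% of all tested genes. The other 15 were not DEGs. Hspa9, a mitochondrial chaperone that hands on new clusters, had 25937, 20617 and 18230 counts after I/R against 10702, 11311 and 8989 in sham (log2 fold change 0.92, SE 0.12, adjusted p = 0.00111 by edgeR). The mitochondrial transporter Abcb8 fell by 0.55 on the log2 scale, and ferredoxin Fdx1 rose by 0.49. The Fdx1 call was lost without I/R replicate 2 or 3 or sham replicate 1 or 2 (0.37 to 0.48). The scaffold protein gene Iscu gave -0.20 (SE 0.15) and was not a DEG.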

How the data were processed

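Per the study's methods, the authors pooled hippocampi, aligned reads with TopHat2 to an Ensembl genome and counted reads per gene with HTSeq. They deposited counts per gene. The submitters' processing notes instead name Bowtie 0.12.2 and the build mm8, but the gene identifiers are those of the BALB/cJ strain. Which processing gave the deposited counts could not be settled from these sources. Strand and multiple-mapping settings are not given in the sources used here. The authors also deposited FPKM per library, and group means, fold changes and p-values, which were not used. Of the table's lines, 4 had been split and were rejoined.

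Groups came from the sample titles. The test was that of edgeR 4.0.16 under R 4.3.3 (filterByExpr, TMM, robust quasi-likelihood F-test, no covariate), adjusted by Benjamini-Hochberg over 18569 genes; limma 3.58.1 and DESeq2 1.42.0 served for alternatives. The SE was derived from the F statistic. The code was tested on simulated data. The genes and lists were chosen with earlier results of these data known. Of each other list, up to 4 DEGs with the largest change, the 2 most abundant in sham and direct partners of the 9 genes were to be named, of which 1 is not reported here; Slc39a8, Steap1, Cd163 and the globin row were chosen after their values were seen. Intervals and limits for a count of 0 cover counting error or library spread only.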

Additional observations from a re-analysis of the deposited data

How the results depend on the processing

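The 20 alternatives left Cp, Trf and the row at the Ftl1 locus called in the same direction. Lcn2 was lost without a count filter (4.85, adjusted p = 0.0609), and without one replicate ranged from 4.25 to 6.70, lost without I/R replicate 1; its adjusted p ranged from 0.000151 to 0.0706. Slc40a1 was lost with only the 4 libraries of high Ttr (-1.01) and at a fold change over 2 (-0.97), leaving 0 lower genes in both cases. Library size only, log2(FPKM + 1) and log2(FPKM + 0.1) moved the median of all genes from 0.026 to 0.28, 0.17 and 0.28. Library size only gave 6334 higher and 2027 lower genes, against 4054 and 3702 with TMM. In that order, Fth1 (0.52, 0.50, 0.50) and Slc11a2 (0.39, 0.37, 0.38) became DEGs, making 5 higher genes each time, and these turned sign without passing the test: Tfrc (0.19, 0.18, 0.18), Tfr2 (0.078, 0.054, 0.063), Fbxl5 (0.23, 0.21, 0.22), Lrp1 (0.019, 0.016, 0.016) and Iscu (0.044, 0.032, 0.032). Fbxl5 also turned with upper quartile scaling (0.0045) and at least 10 counts in every library (0.0065). Without one replicate, Tfrc ranged from -0.18 to 0.10, Ireb2 from -0.018 to 0.11, Steap1 from -0.25 to 1.27 and Fbxl5 from -0.16 to 0.12.

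Of the other iron genes, 10 were higher and 2 lower at a fold change over 2. The lower count was 3 with library size only, with either FPKM scale and with high Ttr only, 14 with unadjusted p, and 3 to 11 without one replicate. The cause of these shifts was not tested. Deviations of same-numbered libraries correlated at -0.16, 0.033 and -0.26. These values showed no pairing by number, but 3 libraries per group cannot exclude it. The replicate block left 3274 higher and 3058 lower genes among all tested, Lcn2 at 5.42, and 3 higher and 1 lower of the 7 tested genes found by name. An erythrocyte covariate was not run, since 1 of its genes was tested. With 3 pools per group and few counts for Hamp, small differences could not be detected.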
